A study of Homo sapiens with 8 samples.

Results

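Genes named ZNF encode zinc finger proteins, most of them of the C2H2 type, in which a string of short zinc-holding loops reads DNA base by base. In many of these proteins a KRAB box at the amino end binds TRIM28, a scaffold that brings the histone methyltransferase SETDB1 and heterochromatin protein 1 to the bound site, and the family is known above all for silencing transposable elements. Many KRAB genes lie in tandem arrays on chromosome 19. Others of the family act at promoters and enhancers, on RNA or on ribosomes, and a few carry the ZNF name without a C2H2 finger.

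The members described here were the genes whose symbol was ZNF followed by digits and at most the letter A or B, and whose mean over all 8 libraries reached 10 CPM (counts scaled to a common library total). The rule found 221 of the 501 such ZNF genes (44.1%) in a table of 61552 genes. The rule used the mean over all libraries and none of the contrasts. All 221 had enough reads to be tested; of the remaining ZNF genes 212 were tested at a mean under 10 CPM and 68 were not, 29 of them without a count. Just inside the threshold were ZNF248 at 10.04 CPM, ZNF530 at 10.11 and ZNF548 at 10.16, and just outside were ZNF33B at 9.81, ZNF772 at 9.75 and ZNF589 at 9.68.

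RNA was sequenced after mRNA enrichment in 8 libraries, 2 in each of 4 groups. The groups were MDA231-LM2 (LM2 below) with a TAF7 hairpin, LM2 with a control hairpin, MDA-MB-231 with the TAF7 hairpin and MDA-MB-231 with the control hairpin; the control groups are labelled wild type. MDA-MB-231 is a line of breast cancer cells of the triple-negative kind, and LM2 is its derivative selected for lung metastasis; all groups grew in the same serum-containing medium. TAF7 is a subunit of TFIID, the general factor that places RNA polymerase II at promoters, and the titles of all TAF7 libraries carry the same number after the hairpin's name, read here as 1 hairpin, so an effect of TAF7 loss and one of that hairpin cannot be told apart. The libraries are numbered 2 and 3 in each group, and nothing in the labels says whether they came from separate cultures; what the p-values weigh is the spread among these libraries, which may be technical.

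Library totals were 17217776 to 20292291 counts. CPM given for single libraries, and sums of it, are scaled by the TMM factor of the library as well as by its total, so that 1 read was worth 0.0488 to 0.0583 CPM; mean levels over all libraries and the markers below are in plain CPM. The LM2 control libraries stood apart, with reads in 24762 and 24490 genes, against 22296 to 23434 in the other 6. TAF7 stood at 142.3 and 148.3 CPM in LM2 shTAF7 against 195.3 and 196.5 in LM2 control, and at 107.6 and 105.4 CPM in MDA-MB-231 shTAF7 against 179.2 and 184.6 in MDA-MB-231 control. Its mRNA thus remained at 74.2% of the control level in LM2 and at 58.5% in MDA-MB-231, and the groups did not overlap. The mesenchymal and basal markers VIM, CD44, EGFR, AXL, MSN and FN1 all stood at 158.9 CPM or more in every library, while ESR1, PGR and CDH1 reached at most 0.284 CPM; of the other luminal markers GATA3 stood at 4.28 to 8.99 CPM, FOXA1 at 1.76 to 9.46, EPCAM at 5.4 to 10.4 and ERBB2 at 53.5 to 69.9. Of 10 markers of leukocytes, endothelium and fibroblasts, PECAM1 and PDGFRB reached 6.8 and 4.91 CPM, and the other 8 reached at most 0.907 CPM.

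Most members were of modest abundance. Their median was 19.8 CPM, 111 of them were under 20 CPM, 33 reached 50 and 6 reached 100. Per transcript length, the median member stood at 3.25 FPKM, against 8.69 FPKM for the 9410 tested genes with a mean of at least 10 CPM, a set used below as the background. The 5 members of highest mean FPKM were ZNF146, a protein made up almost wholly of zinc fingers, ZNF622, a factor in maturation of the large ribosomal subunit, ZNF664, ZNF22 and ZNF330, a nucleolar protein. ZNF146 stood at 45.5 ± 0.643 FPKM in LM2 shTAF7, 58.0 ± 1.57 in LM2 control, 53.5 ± 0.898 in MDA-MB-231 shTAF7 and 58.9 ± 1.83 in MDA-MB-231 control (SD, n = 2 each).

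A search of each gene's longest coding sequence in GENCODE release 29 for the pattern of a KRAB box placed 117 members in a KRAB class and 104 outside it. Such a search can miss divergent boxes, as it did in ZNF133, ZNF473 and ZNF714. Of the KRAB class, 69 of 117 lay on chromosome 19, which held 88 of the 221 members. A SCAN domain, which pairs zinc finger proteins with each other, was matched in 10 members. KRAB members had a median of 12 fingers, a mean level of 16.0 CPM at the median and 42.4% GC in the transcript; members without the box had 7 fingers, 27.6 CPM and 48.2% GC. The background genes had a median of 47.9% GC.

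For 190 members a RefSeq promoter window (250 bases before to 50 after the start, GRCh38.p14) was at hand. Both strands were searched for 5 motifs, none of which contains another. The letters CCGGAAGT, the core of the site bound by ETS factors, stood in 21.1% of the members' windows, against 4.42% of all 27305 windows in the table. The box CCAAT stood in 45.8% against 35.7%, the cyclic AMP response element TGACGTCA in 4.74% against 1.97%, and the palindrome bound by NRF1 in 2.63% against 1.37%. TATAAA was the exception, at 3.16% against 12%. The median window of a member held 22 CG pairs against 13 over all windows. Members that were lower or higher in LM2 shTAF7 held the ETS letters in 23.9% of 71 windows and 21.1% of 19 windows, and members not called held them in 19% of 100. All windows in the table include those of genes not expressed in these cells, while the members were chosen by level. Windows of the background genes alone were not searched, so a difference from all windows may belong to expressed genes in general. A match is a string of letters, and binding there was not measured.

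Windows of 4 members with a single start in the table are printed because the results below turn on these genes: ZNF300 and ZNF347 differed most between the lines with the control hairpin, and ZNF627 and ZNF787 were among the members that moved most on knockdown in LM2. They run 5′ to 3′ on the gene's own strand, with CG pairs in capitals. ZNF300 (chr5:150904931-150905230, minus strand) held 15 CG pairs, ZNF347 (chr19:53159004-53159303, minus strand) 27, ZNF627 (chr19:11597233-11597532, plus strand) 19 and ZNF787 (chr19:56121246-56121545, minus strand) 32. The first 3 each held a CCAAT box; ZNF787 held the ETS letters and no CCAAT.
ZNF300: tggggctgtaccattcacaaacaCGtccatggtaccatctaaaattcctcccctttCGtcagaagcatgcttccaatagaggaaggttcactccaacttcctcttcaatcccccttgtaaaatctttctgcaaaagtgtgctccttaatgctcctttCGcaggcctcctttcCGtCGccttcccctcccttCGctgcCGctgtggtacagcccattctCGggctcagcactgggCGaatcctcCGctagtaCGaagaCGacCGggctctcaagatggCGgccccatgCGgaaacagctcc
ZNF347: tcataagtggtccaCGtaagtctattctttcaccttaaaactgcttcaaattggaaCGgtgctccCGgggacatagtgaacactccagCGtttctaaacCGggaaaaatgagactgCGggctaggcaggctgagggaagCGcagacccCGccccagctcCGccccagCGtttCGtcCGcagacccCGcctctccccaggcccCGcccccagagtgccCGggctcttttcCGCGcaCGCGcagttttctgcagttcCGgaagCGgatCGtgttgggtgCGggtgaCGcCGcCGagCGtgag
ZNF627: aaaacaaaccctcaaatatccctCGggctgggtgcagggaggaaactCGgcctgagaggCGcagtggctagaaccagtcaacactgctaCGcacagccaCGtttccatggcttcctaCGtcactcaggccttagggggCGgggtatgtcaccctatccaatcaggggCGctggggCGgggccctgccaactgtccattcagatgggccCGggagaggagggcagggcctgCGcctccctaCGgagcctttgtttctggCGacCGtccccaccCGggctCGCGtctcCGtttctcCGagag
ZNF787: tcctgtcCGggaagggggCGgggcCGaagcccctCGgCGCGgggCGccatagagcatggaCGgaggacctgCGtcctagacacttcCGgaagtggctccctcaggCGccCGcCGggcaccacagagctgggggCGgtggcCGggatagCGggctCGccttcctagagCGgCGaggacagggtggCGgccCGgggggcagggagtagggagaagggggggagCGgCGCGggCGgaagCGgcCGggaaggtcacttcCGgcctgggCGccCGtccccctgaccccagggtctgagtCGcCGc

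With TAF7 knocked down in LM2, many more members were lower than higher, and KRAB genes made up most of those that fell. Of 221 members, 78 were lower and 24 higher in LM2 shTAF7 than in LM2 control, at an edgeR adjusted p under 0.05 over all 15923 tested genes. Among the background genes 20% were called lower and 33% higher (19.4% and 21.8% of all tested genes), against 35.3% and 10.9% of the members. The median log2 fold change of the members was -0.17, against 0.06 for the background genes. CPM did not overlap between the groups for 124 members that were lower in LM2 shTAF7 and 41 that were higher; the background shares were 30.9% and 45.6%.

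The KRAB class carried most of the falls. Of 117 KRAB members 51 fell and 5 rose in LM2, with a median log2 fold change of -0.23, and of 104 members without the box 27 fell and 19 rose, with a median of -0.05. Among the 69 KRAB members on chromosome 19, 35 fell and 2 rose at a median of -0.32, and among the 48 on other chromosomes 16 fell and 3 rose at a median of -0.21. The falls were not limited to well expressed genes: of the 212 other tested ZNF genes 70 were lower and 12 higher (33% and 5.66%). Their median was -0.34. Over all tested genes the shares were 19.4% and 21.8%, and a share for genes under 10 CPM alone was not computed. The background genes held 1883 of the 3092 falls and 3107 of the 3478 rises over all tested genes. Rises were thus few among genes under 10 CPM in general, and the low share of rises is not particular to these ZNF genes. Large falls lay mostly at low level: of all tested genes 844 were called lower by 2-fold or more, 125 of them at 10 CPM or more. By finger number, 8 of 42 members with 0 to 4 fingers fell and 9 rose, while 20 of 43 members with 15 or more fingers fell and 4 rose.

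Fewer members were called lower without library 3 of LM2 shTAF7, but that fit leaves the group without a replicate. Falls over all tested genes dropped as well, whichever LM2 library was left out, so the lost calls cannot be credited to library 3. Without library 3 the median log2 fold change of the members without the box was 0.02, against -0.05 with all libraries. For the KRAB members the median stayed between -0.29 and -0.19 with any library left out. TAF7 knockdown in LM2 also moved with GC content. With the members divided into 3 parts of like size by GC content, in the lowest part 20 of 45 KRAB genes fell, against 559 of 2235 background genes in the same GC range. In the middle part the counts were 27 of 50 and 592 of 2578, and in the highest 4 of 22 and 730 of 4587. Of the members without the box, 13 of 29 fell in the lowest part, 7 of 23 in the middle and 7 of 52 in the highest. In the lowest part the members with and without the box thus fell in like shares. With GC and length corrected for, 49 KRAB members fell and 5 rose in LM2.

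Summed over the 117 KRAB members, the level was 1999.3 and 1905.1 CPM in the LM2 shTAF7 libraries and 2326.5 and 2313.4 in LM2 control. In MDA-MB-231 the sums were 2332.8 and 2466.6 CPM with shTAF7 and 2458.1 and 2490.0 with the control hairpin. The LM2 shTAF7 libraries were therefore the lowest of the 8, and the MDA-MB-231 groups overlapped. The other 104 members summed to 4201.0 and 4115.0 CPM in LM2 shTAF7 against 4242.0 and 4275.5 in LM2 control. The ZNF genes under the threshold showed another order: they summed to 926.2 and 906.0 CPM in LM2 shTAF7 and 1129.5 and 1106.1 in LM2 control, against 917.2 to 961.1 in the 4 MDA-MB-231 libraries. For these genes the LM2 control libraries, which also had the most genes detected, stood apart from the other 6; the part of that in the LM2 calls was not tested.

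**Figure D1:**
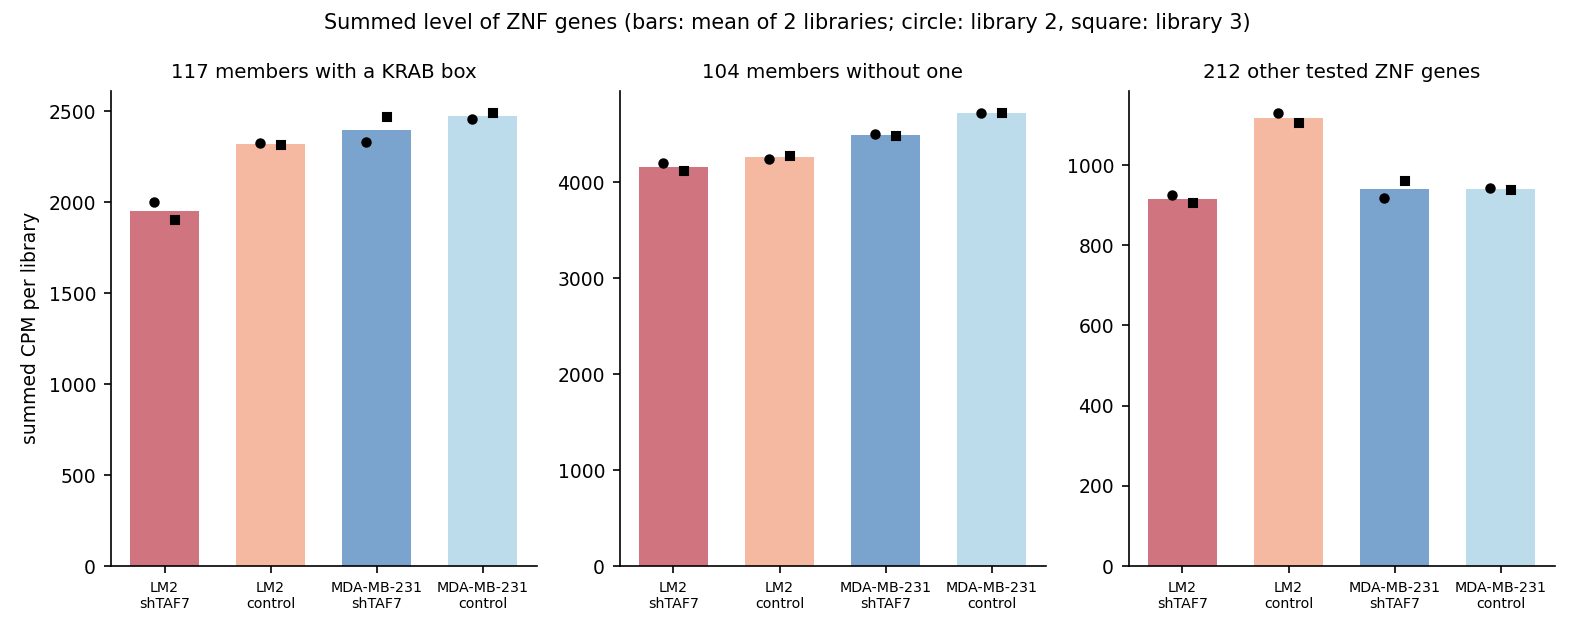
Summed CPM per library of the 117 KRAB members, the 104 members without a KRAB box and the 212 other tested ZNF genes, in LM2 shTAF7, LM2 control, MDA-MB-231 shTAF7 and MDA-MB-231 control; bars are means of 2 libraries and points the libraries. The KRAB members were lowest in LM2 shTAF7 (mean 1952.2 CPM), and the genes under the threshold were highest in LM2 control (mean 1117.8 CPM).

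ZNF558, a KRAB gene reported to silence the mitophagy gene SPATA18 in human neural progenitors, had the lowest fold change. It stood at 7.76 and 7.34 CPM in LM2 shTAF7, 17.4 and 15.9 in LM2 control, 36.4 and 38.4 in MDA-MB-231 shTAF7 and 32.8 and 31.7 in MDA-MB-231 control. The LM2 shTAF7 libraries thus lay far below the other 6. The fall in LM2 was to 45.4% of the control level (log2 fold change -1.14 ± 0.12 SE, edgeR adjusted p = 1.44e-10), and in MDA-MB-231 the log2 fold change was 0.22 ± 0.09 SE (edgeR adjusted p = 0.0775).

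ZNF697, which has 11 fingers and no matched KRAB box, stood at 31.8 and 27.0 CPM in LM2 shTAF7 and 60.3 and 62.7 in LM2 control. Its MDA-MB-231 values were 64.6 and 58.9 CPM with shTAF7 and 69.3 and 72.0 with the control hairpin. Only the LM2 shTAF7 libraries were low, and the fall was to 47.7% of the LM2 control level (log2 fold change -1.07 ± 0.08 SE, edgeR adjusted p = 1.62e-14). ZNF627, a KRAB gene with 11 fingers, stood at 6.48 and 7.55 CPM in LM2 shTAF7 against 14.9 and 13.1 in LM2 control, and between 10.8 and 13.6 in MDA-MB-231. It too was low in the LM2 shTAF7 libraries alone, at 50.2% of the LM2 control level.

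The other 5 of the 8 lowest called members were all KRAB genes. ZNF585A fell by 0.98 on the log2 scale, ZNF506 by 0.93, ZNF33A by 0.84, ZNF529 by 0.84 and ZNF620 by 0.81, and each remained called with any 1 library left out. ZNF585A and ZNF33A have a close copy each (ZNF585B and ZNF33B), and counting could have divided reads between the copies. ZNF33A stood at 19.3 and 19.7 CPM in LM2 shTAF7, against 36.3 and 33.8 in LM2 control and 29.4 to 32.2 in the 4 MDA-MB-231 libraries.

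The members that rose in LM2 were mostly outside the KRAB class. ZNF428, a small protein in which 1 finger was matched, stood at 18.0 and 23.8 CPM in LM2 shTAF7 and 11.7 and 10.1 in LM2 control. In MDA-MB-231 it stood at 9.97 and 10.9 CPM with shTAF7 and 6.92 and 7.66 with the control hairpin. It was higher in shTAF7 than in control without overlap in both lines, at 191.3% of control in LM2 (log2 fold change 0.94 ± 0.13 SE, edgeR adjusted p = 1.01e-07). In MDA-MB-231 its call was lost with GC content and length corrected for. ZNF787 stood at 79.2 and 86.7 CPM in LM2 shTAF7 and 46.3 and 51.3 in LM2 control, and at 63.3 and 68.0 against 55.1 and 54.9 CPM in MDA-MB-231. Again both lines were higher with shTAF7 in these values, although the direction in MDA-MB-231 turned with GC content and length corrected for (log2 fold change -0.07). In LM2 it stood at 170.0% of control (log2 fold change 0.77 ± 0.08 SE, edgeR adjusted p = 2.82e-11).

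ZNF628 rose by 0.86 on the log2 scale in LM2. It stood at 16.4 and 18.3 CPM in LM2 shTAF7 and at 8.42 to 10.3 in the other 6 libraries. ZNF185, a LIM-domain protein of the actin cytoskeleton rather than a C2H2 factor, rose by 0.65; it stood at 91.9 and 92.1 CPM in LM2 shTAF7 against 56.2 and 61 in LM2 control. These genes were high in LM2 shTAF7 relative to LM2 control without overlap. The log2 fold changes of the other 4 of the 8 highest were 0.61 for ZNF804A, a gene studied as a schizophrenia risk locus, 0.59 for ZNF672, 0.56 for ZNF395 and 0.55 for the KRAB gene ZNF777.

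**Figure D2:**
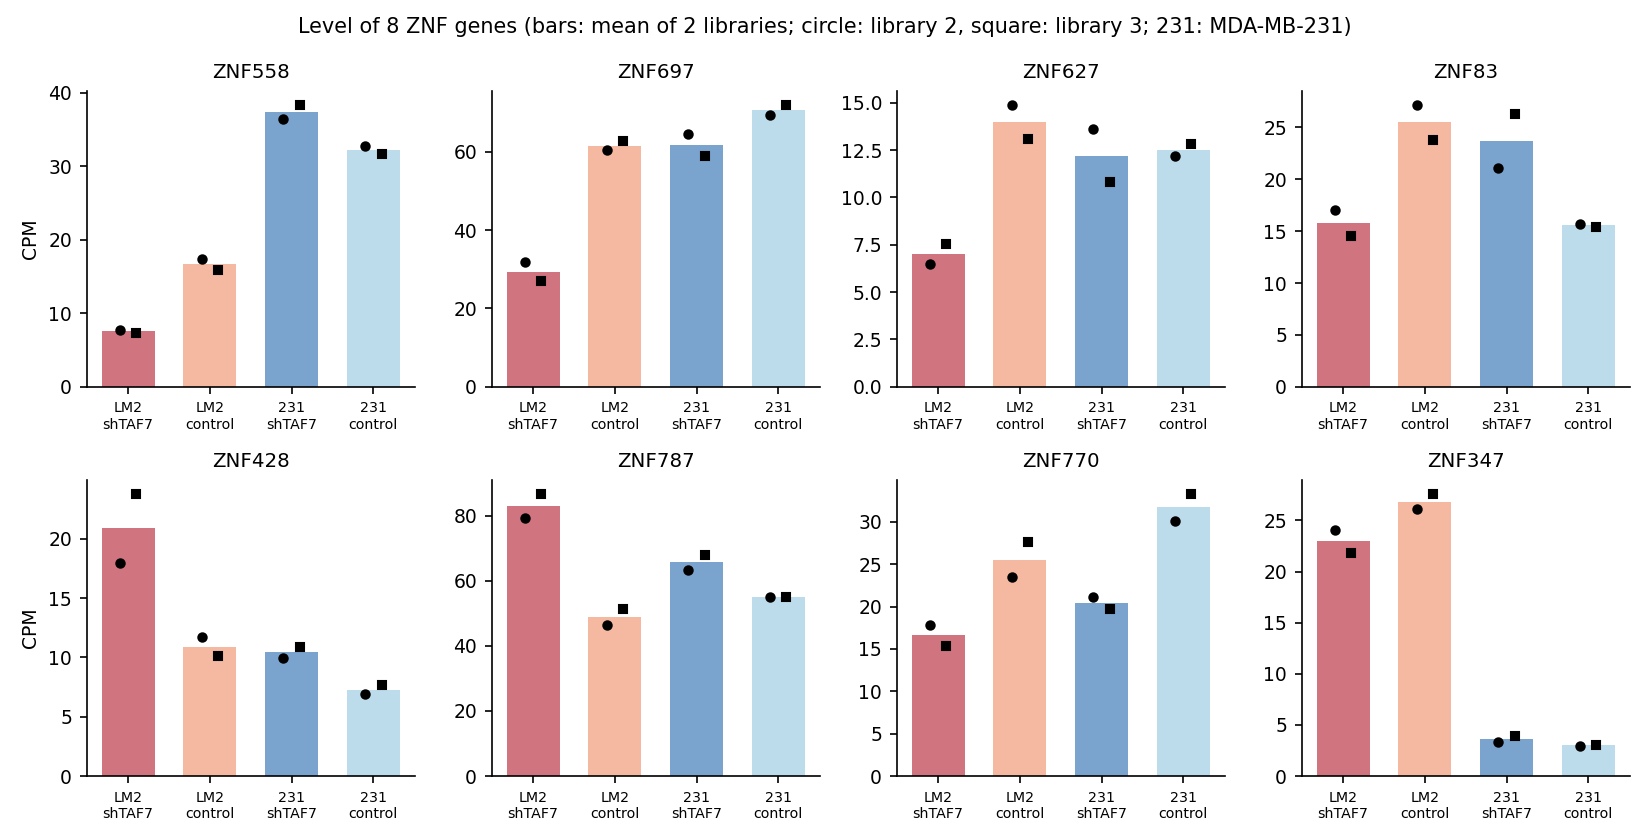
CPM of 8 members in the 4 groups; bars are means of 2 libraries and points the libraries, each panel with its own axis from 0. ZNF558, ZNF697 and ZNF627 are lowest in LM2 shTAF7, ZNF83 is ordered oppositely in the 2 lines, and ZNF347 differs between the lines. ZNF428 and ZNF787 are higher and ZNF770 is lower with shTAF7 in both lines. With GC content and length corrected for, ZNF428 was not called in MDA-MB-231 and ZNF787 was not higher there.

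In MDA-MB-231 fewer members were called, and few of those were KRAB genes. Of 221 members 30 were lower and 17 higher in MDA-MB-231 shTAF7 than in MDA-MB-231 control at an edgeR adjusted p under 0.05, 13.6% and 7.69% of the members against 19.7% and 17.7% of the background genes (12.9% and 12.6% of all tested genes). The median log2 fold change was -0.04. Of the KRAB members 9 fell and 2 rose, and of the members without the box 21 fell and 15 rose. CPM did not overlap between the groups for 84 members that were lower and 52 that were higher, with background shares of 36.4% and 35.6%.

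Fewer members were called when MDA-MB-231 control library 2, control library 3 or shTAF7 library 3 was left out. Each such fit leaves 1 library in a group, and the calls over all tested genes fell as well. With any 1 library left out, the median log2 fold change of the members ranged over -0.05 to -0.03. Correcting for GC content and length gave 22 higher and 17 lower and a median log2 fold change of 0.01. Members named below as unaffected by leaving out any 1 library kept an adjusted p under 0.05 in all 8 such fits.

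ZNF614, a KRAB gene, stood at 11.3 and 11.2 CPM in MDA-MB-231 shTAF7 and 17.1 and 18.7 in MDA-MB-231 control. The values did not overlap, and the level was 62.9% of control (log2 fold change -0.67 ± 0.12 SE, edgeR adjusted p = 2.73e-05). ZNF106, an RNA-binding protein whose loss in mice causes motor neuron disease, stood at 91.7 and 80.1 CPM in MDA-MB-231 shTAF7 against 121.6 and 118.5 in MDA-MB-231 control. It fell by 0.48 on the log2 scale, and ZNF664 fell by 0.39. All 3 falls, with those of ZNF770, ZNF585A and ZNF609, were unaffected by leaving out any 1 library, though that of ZNF585A lost its call with GC and length corrected for; but the falls of ZNF704 (log2 fold change -0.44) and ZNF124 (-0.41) were not.

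Of the 8 highest called members in MDA-MB-231, ZNF83 and ZNF251 were unaffected by leaving out any 1 library. ZNF83 stood at 21.1 and 26.3 CPM in MDA-MB-231 shTAF7 and 15.7 and 15.4 in MDA-MB-231 control, and rose by 0.61 on the log2 scale (SE 0.11, edgeR adjusted p = 5.77e-05). ZNF251, a KRAB gene, stood at 24 and 26.9 against 17.6 and 19.3 CPM and rose by 0.47. Neither gene's groups overlapped. The log2 fold changes of ZNF428 (0.52), ZNF580 (0.44), ZNF133 (0.39), ZNF219 (0.39), ZNF444 (0.35) and ZNF76 (0.34) were called with all libraries and not with certain libraries left out; the highest adjusted p in those fits was 0.409, for ZNF76 without MDA-MB-231 shTAF7 library 3.

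The 2 knockdown comparisons share no library. Of the 221 members 14 were lower in both lines and 6 higher in both, 4 were called in opposite directions and 96 in neither. Among background genes 6.29% were lower in both, 9.96% higher in both and 5.5% opposite. The 14 shared falls were 46.7% of the falls in MDA-MB-231 and 17.9% of those in LM2, and the 6 shared rises were 35.3% and 25% of the rises. Among background genes the shared falls were 31.9% of the falls in MDA-MB-231 and 31.4% of those in LM2. Their shared rises were 56.2% and 30.2% of the rises. Of the KRAB members 4 fell in both lines, and the 6 that rose in both lay outside the class. The counts of shared falls and of shared rises dropped when MDA-MB-231 control library 2, control library 3 or shTAF7 library 3 was left out. Each of these fits leaves 1 library in a group, and background shares for them were not computed.

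ZNF770, with 10 fingers and no matched KRAB box, was the member that fell most in the line where it fell less. It stood at 17.8 and 15.4 CPM in LM2 shTAF7 against 23.5 and 27.6 in LM2 control, and at 21.1 and 19.7 in MDA-MB-231 shTAF7 against 30.1 and 33.3 in MDA-MB-231 control. The shTAF7 libraries were lower in both lines without overlap. The log2 fold change was -0.63 ± 0.11 SE in LM2 and -0.64 ± 0.10 SE in MDA-MB-231 (edgeR adjusted p = 6.18e-06 and 5.98e-06), and the difference between them was 0.01 ± 0.15 SE.

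ZNF609, a partner of the Integrator complex and of the cohesin loader NIPBL, stood at 34.9 and 32.7 CPM in LM2 shTAF7 against 51.4 and 56.0 in LM2 control. In MDA-MB-231 it stood at 104.9 and 92.1 CPM with shTAF7 against 131.4 and 131.5 with the control hairpin. It was lower with shTAF7 in each line and lower in LM2 than in MDA-MB-231 with either hairpin. ZNF614 and ZNF585A also fell in both lines, by 0.49 and 0.98 on the log2 scale in LM2 and by 0.67 and 0.44 in MDA-MB-231. The next 4 by the smaller change were ZNF322, ZNF260, ZNF468 and ZNF507, with log2 fold changes of -0.54 to -0.28 in LM2 and -0.38 to -0.33 in MDA-MB-231; each lost its call in at least 1 line when some library was left out. The 6 that rose in both were ZNF428, ZNF865, ZNF22, ZNF787, ZNF444 and ZNF395, and each lost its call in MDA-MB-231 when some library was left out. There ZNF428, ZNF865, ZNF787 and ZNF444 also lost their call with GC content and length corrected for.

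**Figure D3:**
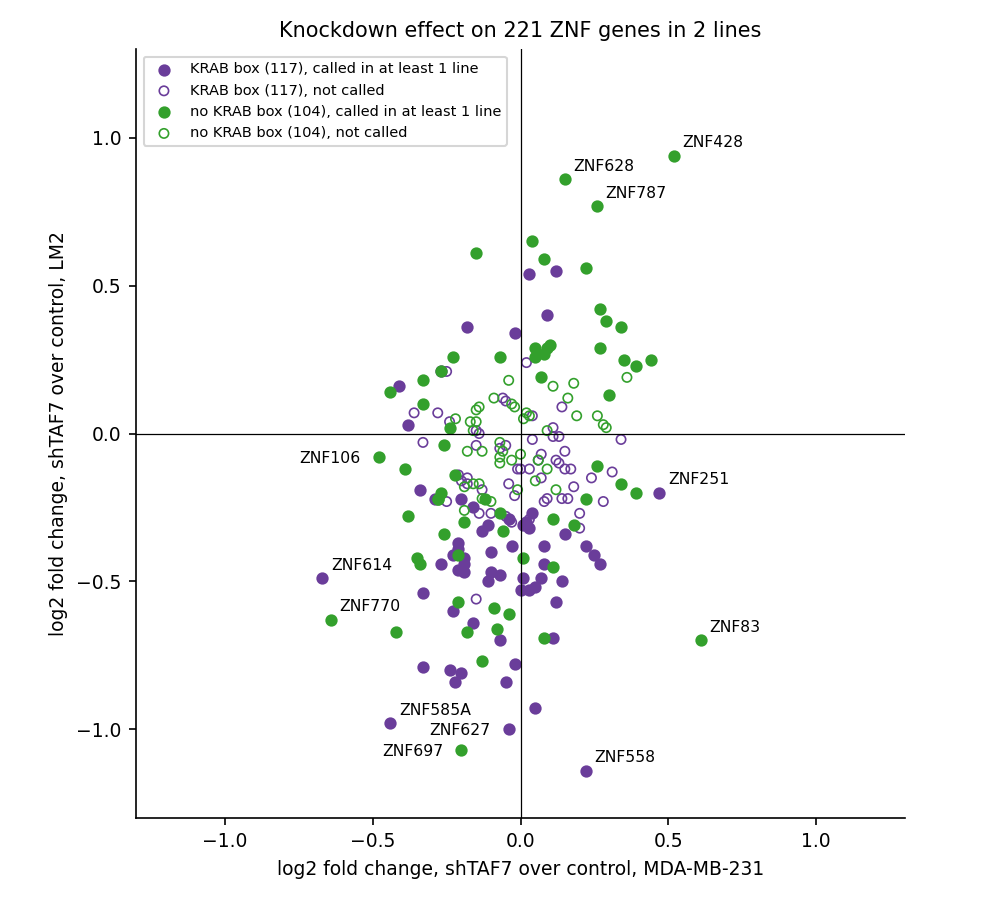
Log2 fold change of shTAF7 over control in MDA-MB-231 (horizontal) and in LM2 (vertical) for the 221 members, in purple with a KRAB box and in green without; filled points were called in at least 1 line. Most KRAB points lie below 0 in LM2 (98 of 117 were negative) and around 0 in MDA-MB-231 (66 of 117).

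The difference between the knockdown effects was called for 65 members: the effect was lower in LM2 than in MDA-MB-231 for 46 and higher for 19, or 20.8% and 8.6%, against 12.7% and 22.0% of the background genes (11.9% and 13.9% of all tested genes). Of the 46, 31 were KRAB members, 26 of them on chromosome 19. The median difference was -0.22 for the KRAB class, 0.00 for members without the box and 0.08 for the background. Without LM2 shTAF7 library 3, 27 members had a lower effect in LM2, and without MDA-MB-231 control library 3, 12 had a higher one.

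ZNF83 showed the opposite order in the 2 lines. Its values were 17.0 and 14.5 CPM in LM2 shTAF7 against 27.2 and 23.8 in LM2 control, a log2 fold change of -0.70, where MDA-MB-231 gave 0.61. The difference of -1.31 ± 0.16 SE (edgeR adjusted p = 1.44e-08) was close in size to that of ZNF558, -1.36 ± 0.15 SE. ZNF226, ZNF330 and ZNF367 were the other members called in opposite directions: ZNF226, a KRAB gene, had a log2 fold change of -0.44 in LM2 and 0.27 in MDA-MB-231, ZNF330 -0.22 and 0.22, and ZNF367, a regulator of cell cycle genes, 0.26 and -0.23. ZNF330 lost its call with DESeq2 in both lines, in LM2 also without either shTAF7 library or control library 2, and in MDA-MB-231 without shTAF7 library 2 or either control library.

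Members that lie next to each other on a chromosome were compared in runs of at least 5 with starts no more than 500 kb apart. The order came from GENCODE release 29, whose build differs from the one the submitters' notes name, so only the order is used. On chromosome 19 the 14 members from ZNF175 to ZNF761, 13 of them KRAB, held 11 falls in LM2 at a median log2 fold change of -0.48. In MDA-MB-231 the same run held 2 falls and 1 rise at a median of 0.05. The 10 members from ZNF146 to ZNF569 held 8 falls and 1 rise in LM2 (median -0.44) and 2 falls in MDA-MB-231 (median -0.07). The 17 members from ZNF264 to ZNF584, 16 of them KRAB, held 4 falls and 1 rise in LM2 at a median of -0.13, and its median in MDA-MB-231 was -0.02.

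The 8 members from ZNF628 to ZNF470 went the other way. This run holds 1 KRAB gene and includes ZNF579, ZNF865, ZNF580, ZNF581, ZNF787 and ZNF444; 4 of the 8 rose in LM2 (median 0.25) and 4 in MDA-MB-231 (median 0.23). All 4 rises in MDA-MB-231 (ZNF865, ZNF580, ZNF787 and ZNF444) lost their call with GC and length corrected for and when some single library was left out. The log2 fold change of ZNF787 there turned to -0.07 with that correction, against 0.26 without it. In LM2 ZNF865 lost its call without LM2 control library 2 and ZNF444 without LM2 shTAF7 library 3 or LM2 control library 3, while ZNF628 and ZNF787 kept theirs. Between the control groups 4 of the 8 were higher in LM2 than in MDA-MB-231. On chromosome 7 the 8 members from ZNF786 to ZNF862, 7 of them KRAB, held 3 rises in LM2 at a median of 0.15, so a KRAB box did not go with a fall in every run. Neighbours in a run may share sequence and promoters, and their counts are not independent.

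**Figure D4:**
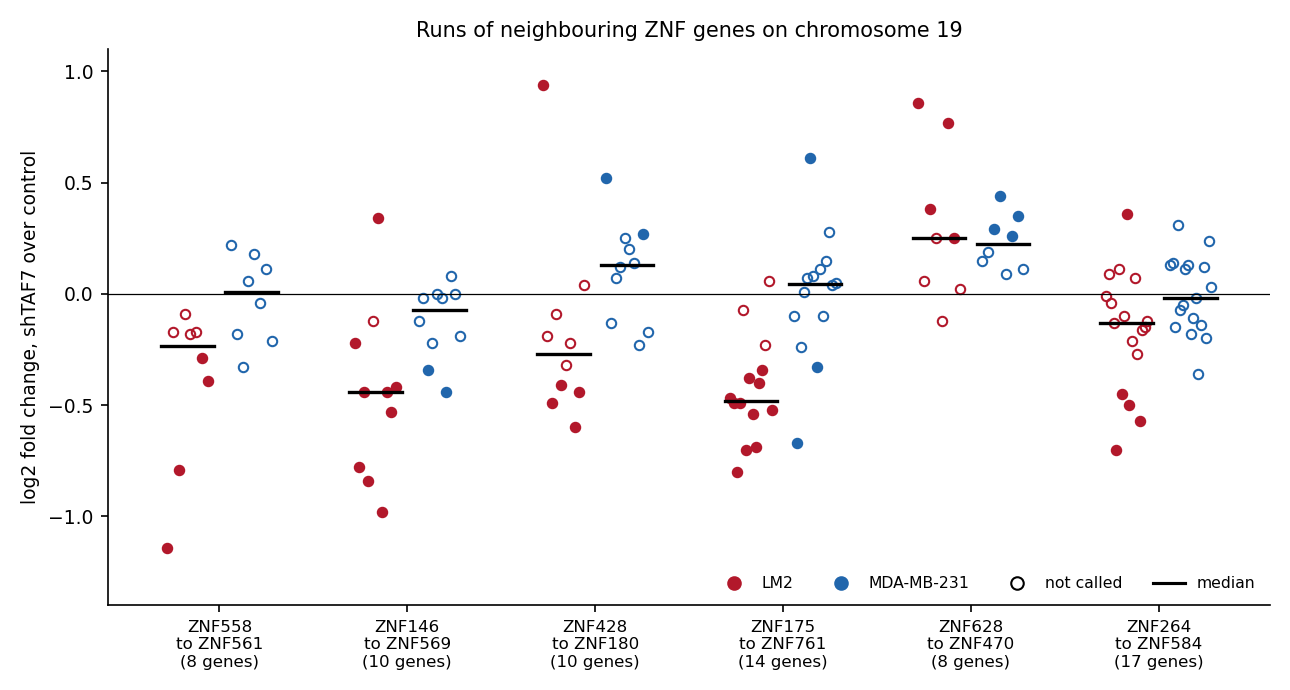
Log2 fold change of shTAF7 over control for the members of 6 runs of neighbouring ZNF genes on chromosome 19, LM2 in red and MDA-MB-231 in blue; filled points were called, and black lines are medians. The run ZNF175 to ZNF761 has a median of -0.48 in LM2 and the run ZNF628 to ZNF470 one of 0.25.

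Members were also grouped by role, and the shares of background genes called on knockdown, given above, stand beside these counts: 20% lower and 33% higher in LM2, and 19.7% lower and 17.7% higher in MDA-MB-231. Of 11 members listed as RNA, translation and ribosome factors, 4 fell and 2 rose in LM2 (36.4% and 18.2%, median log2 fold change -0.06). In MDA-MB-231 1 fell and 2 rose (9.09% and 18.2%, median 0.10). ZNF207, which loads BUB3 at kinetochores, rose by 0.30 on the log2 scale in LM2, at 166.1 and 174.6 CPM in LM2 shTAF7 against 139.5 and 137.3 in LM2 control. ZNF326, of a complex that couples transcription to splicing, fell by 0.30 in LM2 and by 0.19 in MDA-MB-231, where the call was lost without shTAF7 library 3 or either control library. ZNF598, the ubiquitin ligase that senses collided ribosomes, had log2 fold changes of 0.06 and 0.03, neither called.

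Of 15 members listed as promoter and enhancer factors, 4 fell and 3 rose in LM2 (26.7% and 20%, median log2 fold change 0.01). In MDA-MB-231 6 fell and 2 rose (40% and 13.3%, median -0.16). With GC content and length corrected for, the falls of ZNF217, ZNF281, ZNF318 and ZNF592 in MDA-MB-231 lost their call. The fall of ZNF384 and the rises of ZNF76 and ZNF395 lost it when some single library was left out, and the fall of ZNF644 kept it in both cases. ZNF217, a repressor amplified in breast cancers, stood at 73.7 and 68.4 CPM in LM2 shTAF7 against 102.0 and 108.3 in LM2 control, and at 93.0 and 93.8 in MDA-MB-231 shTAF7 against 109.2 and 106.3 in MDA-MB-231 control. It was lower with shTAF7 without overlap in both lines; the fall in LM2 was 0.57 on the log2 scale (SE 0.07, edgeR adjusted p = 1.03e-08), and the one of 0.21 in MDA-MB-231 lost its call when any 1 library of that line was left out. ZNF462, with 33 matched fingers the most of any member, fell by 0.67 in LM2. ZNF395 rose by 0.56 and ZNF143, an activator at many promoters, by 0.29 in LM2. ZNF644, a partner of the histone methyltransferases EHMT1 and EHMT2, fell by 0.22 in LM2, a call lost without LM2 shTAF7 library 3 or LM2 control library 2, and by 0.28 in MDA-MB-231.

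Of 10 genes listed as silencers of retroelements and ZNF arrays 3 passed the level rule, and all 3 fell in LM2, at a median log2 fold change of -0.44. Of these only ZNF274 is described below as acting on ZNF genes. The other listed genes, among them ZNF91 and ZNF93, were under the threshold, so the count does not speak for silencers of retroelements. ZNF274, which recruits TRIM28 and SETDB1 to the ends of other ZNF genes, stood at 52.3 and 48.2 CPM in LM2 shTAF7 against 74.5 and 74.9 in LM2 control, and at 45.6 and 47.2 against 43.4 and 42.2 CPM in MDA-MB-231. It was highest in LM2 control, and the fall in LM2 was 0.57 on the log2 scale (SE 0.08, edgeR adjusted p = 2.92e-08). ZNF445, which keeps genomic imprints, fell by 0.44 in LM2 and by 0.27 in MDA-MB-231, and ZNF202, a repressor of lipid genes, fell by 0.31 in LM2. The call of ZNF445 in MDA-MB-231 was lost without shTAF7 library 2 or either control library, and that of ZNF202 without LM2 shTAF7 library 3 or LM2 control library 2.

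The partners of KRAB proteins were described from a list of 36 cofactors and silencing enzymes, none of them members. In LM2 15 of them rose and 9 fell (41.7% and 25%, against 33% and 20% of the background genes; median log2 fold change 0.10). In MDA-MB-231 2 rose and 6 fell (5.56% and 16.7%, against 17.7% and 19.7%; median -0.06). TRIM28 itself stood at 671.1 and 706.3 CPM in LM2 shTAF7 against 374.5 and 381.0 in LM2 control, and at 576.6 and 560.3 against 499.2 and 531.3 CPM in MDA-MB-231. It was lowest in LM2 control and rose by 0.87 on the log2 scale in LM2 (SE 0.07, edgeR adjusted p = 2.45e-14). The histone methyltransferase SUV39H1 rose by 0.90, UHRF1, which brings DNA methylation to replicated DNA, by 0.81, and the remodeller CHD4 by 0.60. SETDB1 fell by 0.34, TASOR of the HUSH complex by 0.41, SETDB2 by 0.55 and the DNA methyltransferase DNMT3B by 0.36. In MDA-MB-231 the largest falls of the list were CBX5 (0.41 on the log2 scale), MPHOSPH8 (0.40), MORC2 (0.35) and MORC3 (0.33), and the 2 rises were HDAC2 (0.21) and DAXX (0.22).

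Between the lines more members were called than on knockdown. With the control hairpins 87 of 221 were lower and 56 higher in LM2 than in MDA-MB-231, 39.4% and 25.3%, against 42.7% and 31.4% of the background genes (32.1% and 32.2% of all tested genes). With the TAF7 hairpin 113 were lower and 52 higher, 51.1% and 23.5%, against 37.2% and 35.4% of the background (31.6% and 30.9% of all tested genes). These are separate libraries: 76 members were lower and 38 higher with both hairpins, against 30.8% and 24.6% of the background genes, and ZNF83, ZNF566 and ZNF761 changed sign. The median log2 difference was -0.13 with the control hairpin and -0.27 with the TAF7 hairpin, against -0.09 and -0.01 for the background genes. In the KRAB class 42 were lower and 27 higher with the control hairpin, and 65 and 21 with the TAF7 hairpin.

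**Figure D5:**
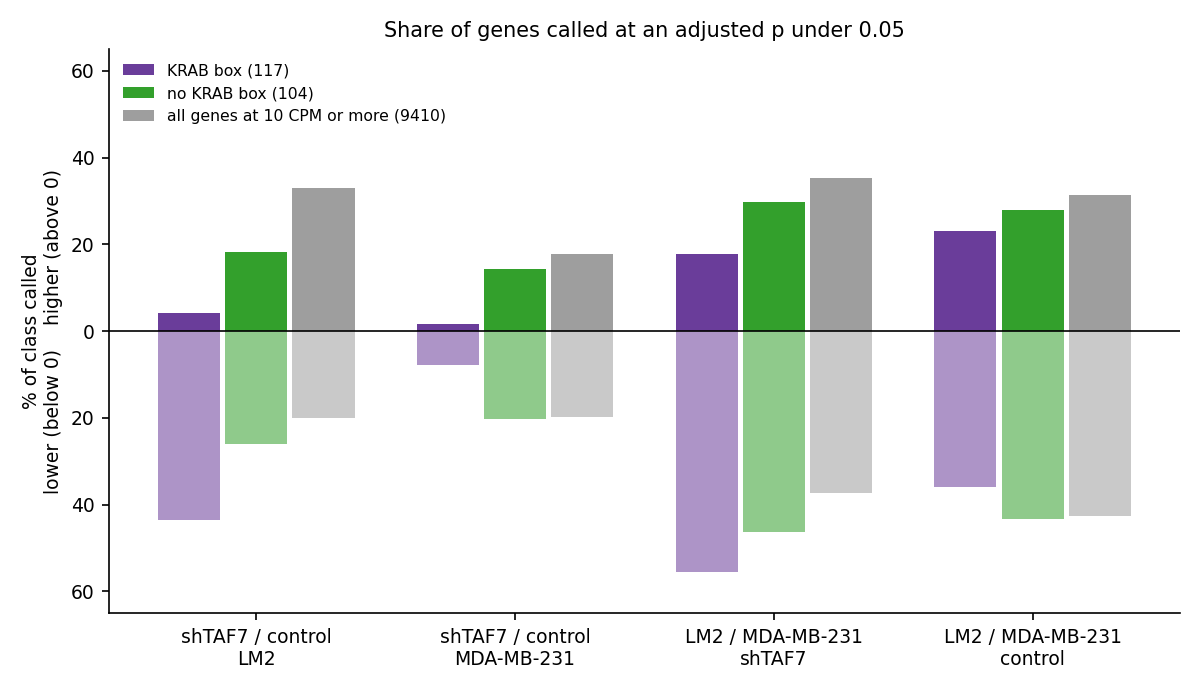
Share of KRAB members, members without a KRAB box and all tested genes with a mean of at least 10 CPM that were called higher (above 0) or lower (below 0), for shTAF7 over control in each line and LM2 over MDA-MB-231 with each hairpin. KRAB members called lower reach 43.6% for knockdown in LM2 and 55.6% for LM2 over MDA-MB-231 with shTAF7, against 20% and 37.2% of all such genes.

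ZNF300, a KRAB gene, was nearly absent from LM2. The LM2 shTAF7 libraries held 0 and 2 reads of it and the LM2 control libraries 1 and 2, while it stood at 19.2 and 22.8 CPM in MDA-MB-231 shTAF7 and 23.7 and 23.1 in MDA-MB-231 control. All LM2 values lay below all MDA-MB-231 values. Given as MDA-MB-231 over LM2, the ratio was 389.7 with the TAF7 hairpin (exact 95% counting interval 107.5 to 3223.6) and 281.7 with the control hairpin (96.1 to 1368.4). These intervals cover counting error only. ZNF300 passed the level rule through the MDA-MB-231 libraries alone, so its difference between the lines is not independent of the rule.

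ZNF347, a KRAB gene with 17 fingers, was the reverse, and it passed the level rule through LM2 alone. It stood at 24.1 and 21.8 CPM in LM2 shTAF7 and 26.1 and 27.6 in LM2 control, against 3.32 and 3.90 in MDA-MB-231 shTAF7 and 2.91 and 3.08 in MDA-MB-231 control. The lines did not overlap, and LM2 was 8.96-fold higher with the control hairpin (log2 difference 3.16 ± 0.15 SE, edgeR adjusted p = 3.69e-24) and 6.31-fold higher with the TAF7 hairpin. The others of the 8 highest between the control groups had log2 differences of 2.09 for ZNF503, a developmental repressor, 1.64 for ZNF438, 1.62 for ZNF486, 1.61 for ZNF354A, 1.47 for ZNF783, 1.25 for ZNF703 and 1.12 for ZNF219. ZNF703, a related repressor amplified in luminal breast cancers, stood at 28.7 and 31.1 CPM in LM2 shTAF7 and 23.4 and 26.5 in LM2 control, and at 9.62 to 10.8 in the 4 MDA-MB-231 libraries.

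Below ZNF300, the lowest in LM2 with the control hairpin were ZNF595 (log2 difference -2.39), ZNF518A (-2.26), ZNF275 (-2.22), ZNF385B (-2.11), ZNF512B (-1.95), ZNF850 (-1.75) and ZNF551 (-1.71). ZNF518A stood at 8.49 and 7.87 CPM in LM2 shTAF7 and 11.7 and 13.3 in LM2 control, against 54.0 to 62.0 in the 4 MDA-MB-231 libraries. With the TAF7 hairpin ZNF587B joined the 8 highest (1.36), and ZNF558 (-2.31), ZNF550 (-2.0) and ZNF239 (-1.99) joined the 8 lowest. ZNF587B has a near copy in ZNF587, so its reads may be divided between them. ZNF239 stood at 4.74 and 4.70 CPM in LM2 shTAF7 and 8.04 and 7.19 in LM2 control, against 17.7 to 18.9 in MDA-MB-231, and it fell on knockdown in LM2 by 0.69 on the log2 scale. ZNF275 stood at 4.7 to 7.15 CPM in the LM2 libraries. ZNF239 and ZNF275 thus passed the level rule through MDA-MB-231 alone, so their differences between the lines are not independent of the rule. The same may hold for other members that lie far apart between the lines.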

How the data were processed

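mRNA-enriched libraries were analysed from gene tables deposited per series, with counts and FPKM. STAR 2.7.10a and the build hg19 are named in the submitters' processing notes; the counting program, its strand setting and the annotation are named in no source used here. The deposited counts per gene were whole numbers, not normalized. The FPKM values are the authors' own, deposited as a second table and scaled to gene length and library size.

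Counts of all 8 libraries, 2 in each of 4 groups, were fitted with edgeR 4.0.16 in R 4.3.3 (TMM, filterByExpr, group means, quasi-likelihood test), with Benjamini-Hochberg adjustment over the 15923 tested genes and a threshold of 0.05. "Called" means past that threshold, and errors of log2 fold changes are standard errors. The fit had 4 residual degrees of freedom. No column was left out. Library totals were 17217776 to 20292291 counts, and intervals cover counting error only. Replicate libraries differed by more than sampling noise (chi-square per degree of freedom 2.23 to 6.63), so each counted as 1 replicate. The script was tested on simulated data.

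The members and lists were chosen with earlier results of these data known. Genes named are, per comparison, the 8 highest and 8 lowest called members without overlap, up to 8 per direction called in both lines, the 5 of highest FPKM, those beside the threshold and the role and partner lists; ZNF226, ZNF330, ZNF367, ZNF566 and ZNF761, and the 4 promoters, were chosen with their values in view. KRAB, SCAN and finger matches are pattern searches on GENCODE release 29 coding sequences. Promoters are from RefSeq (GRCh38.p14), matched by symbol for 190 members, 31 being unmatched. Alternatives were RLE factors, DESeq2 1.42.0, every gene with a count in place of the filter, the 4 libraries of each comparison alone, a replicate block, limma 3.58.1 on log2(FPKM + 1), offsets for GC content and length, thresholds of 5 and 20 CPM, and leaving out each library.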

Additional observations from a re-analysis of the deposited data

Results flagged for a closer look

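The 16 members named for the difference between the knockdown effects (LM2 minus MDA-MB-231) were flagged because that difference itself passed the edgeR test at an adjusted p under 0.05. Lower effects in LM2 were found for ZNF558 (difference -1.36 on the log2 scale), ZNF83 (-1.31), ZNF506 (-0.97), ZNF627 (-0.96), ZNF697 (-0.87), ZNF320 (-0.80), ZNF33A (-0.79) and ZNF239 (-0.77). In these 8 the log2 fold change was between -1.14 and -0.69 in LM2 and between -0.20 and 0.61 in MDA-MB-231.

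Higher effects in LM2 were found for ZNF804A (0.77), ZNF628 (0.71), ZNF185 (0.61), ZNF704 (0.58), ZNF124 (0.57), ZNF551 (0.54), ZNF672 (0.51) and ZNF496 (0.51). For ZNF704 the log2 fold change was 0.14 in LM2 and -0.44 in MDA-MB-231, and for ZNF496 it was 0.18 and -0.33. The differences of ZNF704, ZNF124, ZNF551 and ZNF672 lost their call in at least 1 fit with a library left out; the highest edgeR adjusted p in those fits was 0.068, 0.133, 0.184 and 0.176 in the same order. Groups of 2 libraries are too small for a search for outlying samples.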

How the results depend on the processing

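With 2 libraries a group, depth and replication both limit members near 10 CPM. For knockdown in MDA-MB-231, 17 higher and 30 lower members became 7 and 18 with DESeq2 and 9 and 18 with limma; 19 were lower without the low-count filter, and 11 were higher at a threshold of 20 CPM. Offsets for GC content and length left 17 lower and turned the median log2 fold change to 0.01, for all members and for the KRAB members. In LM2, 24 higher and 78 lower became 16 and 56 with DESeq2, 11 higher with limma and 40 lower at 20 CPM. Between the lines, at 20 CPM, 27 were higher and 52 lower with the control hairpin, and 28 and 55 with the TAF7 hairpin. For the difference between the effects, DESeq2 gave 11 higher and 20 lower, limma 6 higher, and the threshold of 20 CPM 23 lower. Where the cause is not a smaller set of members, the cause was not tested.

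Leaving out 1 library gave 16 to 26 higher and 49 to 78 lower for knockdown in LM2, and 3 to 17 and 14 to 38 for that in MDA-MB-231. It gave 45 to 56 and 81 to 94 between the lines with the control hairpin, 44 to 53 and 94 to 113 with the TAF7 hairpin, and 12 to 20 and 27 to 47 for the difference. The counts of KRAB members and of members called in both lines under these alternatives were chosen after seeing the data: KRAB falls in LM2 ranged over 30 to 52, with 35 by DESeq2 and 64 by limma. The median of members without a KRAB box in LM2 ranged over -0.09 to 0.02, and was 0.02 without LM2 shTAF7 library 3. In each line fewer of all tested genes were also called on knockdown when 1 library of that line was left out.

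The library numbers 2 and 3 are shared by all groups. The differences between library 3 and library 2 had correlations over genes of -0.1676 to 0.0781 from group to group. These cannot tell whether same-numbered libraries were made together. With the replicate block 24 members were higher and 80 lower with shTAF7 in LM2, 18 and 30 with shTAF7 in MDA-MB-231, 56 and 89 between the lines with the control hairpin, 52 and 113 with the TAF7 hairpin, and 19 and 47 for the difference. A fit of only the 4 libraries of a comparison was not run for the difference, which needs all 8. Of 2309 values for 155 gene results under these alternatives, 2079 kept their direction and side of the threshold, 189 lost the call in the same direction, 17 gained one and 24 changed sign.

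Of those that changed sign, only ZNF787 with shTAF7 in MDA-MB-231 had been called: its log2 fold change was -0.07 with offsets for GC content and length, where it had been 0.26. The others were uncalled values near 0, before and after. With the same offsets ZNF598 stood at -0.09 in MDA-MB-231 and -0.01 in LM2, ZNF638 at 0.06 in MDA-MB-231 and ZNF451 at 0.0 in LM2. With limma in LM2, ZNF598 stood at -0.06, ZNF830 at -0.09, ZNF292 at -0.05, and ZNF148, ZNF281 and ZNF687 at -0.1 each. Leaving out 1 library gave -0.03 to 0.07 for ZNF598 and -0.05 to 0.08 for ZNF292 in MDA-MB-231. In LM2 it gave -0.05 to 0.18 for ZNF598, -0.07 to 0.14 for ZNF830, -0.11 to 0.01 for ZNF451, -0.04 to 0.09 for ZNF148, -0.03 to 0.1 for ZNF281, -0.04 to 0.07 for ZNF687 and -0.1 to 0.24 for ZNF292. The cause was not tested.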

Other observations

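Across the 221 members the log2 fold change on knockdown had a Spearman correlation with transcript GC content of 0.38 in LM2 and 0.22 in MDA-MB-231; over the 9400 genes of at least 10 CPM with both features known it was 0.22 and 0.24. With transcript length it was -0.23 in LM2 and -0.34 in MDA-MB-231 over the members, and -0.35 and -0.47 over those genes. These are correlations across genes, which share the 8 libraries and are not independent replicates.

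The 8 members from ZNF558 to ZNF561 on chromosome 19, 7 of them KRAB, stood lower in LM2 than in MDA-MB-231: all 8 were called lower with the TAF7 hairpin (median log2 difference -0.59) and 7 with the control hairpin (median -0.45). The 10 members from ZNF428 to ZNF180 held 9 that were lower and 1 that was higher in LM2 with the TAF7 hairpin, and 3 and 1 with the control hairpin. Neighbouring genes and the shared libraries make these counts dependent, and copy number of the region was not measured.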
